A study of Mus musculus with 16 samples.

Results

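The GDNF family genes examined here were 2 ligands, *Gdnf* and *Nrtn*, their co-receptors *Gfra1* and *Gfra2*, the receptor tyrosine kinase *Ret* and the alternative receptor *Ncam1*. They were chosen by name for their roles, and all 6 were found among the 30451 genes of the count table. The question was which cells of the neonatal testis niche held ligand transcripts and which held receptor transcripts. Whole testes of mice at postnatal day (P) 2 were dissociated and profiled by droplet-based single-cell RNA sequencing, in which every captured mRNA carries a unique molecular identifier (UMI) and is read from its 3′ side. Wild-type mice were compared with *Ddx5* knockout mice, in which Cre recombinase under the *Mvh* promoter deletes floxed *Ddx5* in germ cells. Germ cells were marked in the study by *Oct4*-GFP, and the sequences of GFP and CRE were counted with the mouse genes.

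The labels name 8 libraries for each genotype, but the barcodes carry only 1 of 2 suffixes, which were tied to the genotypes by cell number, so each genotype counted as 1 library. No difference between the genotypes could therefore be tested. The wild-type library held 84263163 UMIs in 6763 barcodes and the other 67558106 in 5423. After barcodes with fewer than 2000 genes or more than 10% mitochondrial UMIs were left out, cells numbered 6329 in wild type, with a median of 11170 UMIs per cell, and 4950 in the other library, with a median of 11668.5. Both libraries shared 12 barcode sequences. *Ddx5*, the targeted gene, reached 1232 UMIs per 1000000 (CPM) in wild-type germ cells and 1842 CPM in germ cells of the other library, a ratio of 1.5 (95% interval 1.36 to 1.64). This count did not bear out the label, so that library is called the library labelled *Ddx5* knockout throughout. Whether the counted 3′ reads cover the deleted part of *Ddx5* was not tested. By single-cell qRT-PCR the paper reports lower *Ddx5* mRNA in sorted knockout gonocytes. UMIs of CRE numbered 20 in the library labelled *Ddx5* knockout and 0 in wild type.

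Cells were assigned by UMI gates on marker genes that are not members of the family. Sertoli cells had at least 3 UMIs of *Amh*, Leydig cells at least 20 of *Cyp11a1*, *Cyp17a1* and *Hsd3b1* together, and myoid cells at least 5 of *Acta2* and 2 of *Myh11*. Stromal cells had at least 1 UMI of *Pdgfra* and at most 2 of *Amh*, and germ cells a UMI of at least 3 of *Dazl*, *Ddx4*, *Mael* and *Stk31*. Macrophages and endothelial cells had gates of their own, which count wherever a cell is said to pass 1 gate, several or none. Cells that passed exactly 1 gate were used, and these were 83.6% of the wild-type cells and 85.6% of the others. They gave 62 germ, 2165 Sertoli, 124 Leydig, 54 myoid and 2851 stromal cells in wild type, and 8, 1595, 101, 25 and 2474 in the library labelled *Ddx5* knockout. The percentages also hold 28 wild-type macrophages and 4 endothelial cells, and 32 and 3 labelled *Ddx5* knockout. These are not among the 5 classes described. Most cells of the myoid gate also passed the stroma gate, 674 of 764 in wild type, so that myoid values are also given for the whole gate. The Sertoli markers outside the gate summed to 6678 and 5816 CPM in Sertoli cells of the 2 libraries and to 106 and 92.8 CPM in stromal cells. Stromal markers outside the gates summed to 7869 and 7784 CPM in stromal cells, but also to 2059 and 1783 CPM in myoid cells.

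GDNF, made by somatic cells of the testis, binds the co-receptor GFRα1 and acts through the RET kinase, and this signal maintains spermatogonial stem cells and their gonocyte precursors. Neurturin, encoded by *Nrtn*, prefers GFRα2 as co-receptor and signals through the same kinase. NCAM, a cell adhesion molecule, can transmit GDNF signals together with GFRα1 in cells that lack RET.

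Genes were placed by GENCODE vM21 annotation of GRCm38, the build named in the submitters' processing notes. *Gdnf* lies on chromosome 15 from 7810846 to 7837575 on the plus strand, and *Nrtn* on chromosome 17 from 56751325 to 56757530 on the minus strand. *Gfra1* spans chromosome 19 from 58235604 to 58455909 on the minus strand, and *Gfra2* chromosome 14 from 70890120 to 70979838 on the plus strand. *Ret* covers chromosome 6 from 118151745 to 118197718, and *Ncam1* chromosome 9 from 49502136 to 49798925, both on the minus strand. A gene on the opposite strand overlaps *Gfra1* (*Gm16277*) and *Ncam1* (*Gm11149*). The library kit keeps the strand, but the counting setting is not given in the sources used here.

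Ligand transcripts came mainly from Sertoli cells for *Gdnf* and, in CPM, from Leydig cells for *Nrtn*, and *Gfra1* and *Ret* were found mainly in wild-type germ cells. *Gfra2* and *Ncam1* were highest in myoid and stromal cells. *Gdnf* held 39.6 CPM in wild-type Sertoli cells, *Nrtn* 77.4 CPM in Leydig cells, *Gfra1* 126 CPM and *Ret* 159 CPM in germ cells. Intervals are exact 95% intervals, Poisson for levels, Clopper-Pearson for shares of cells and conditional binomial for ratios, and they cover counting error only.

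**Figure D1:**
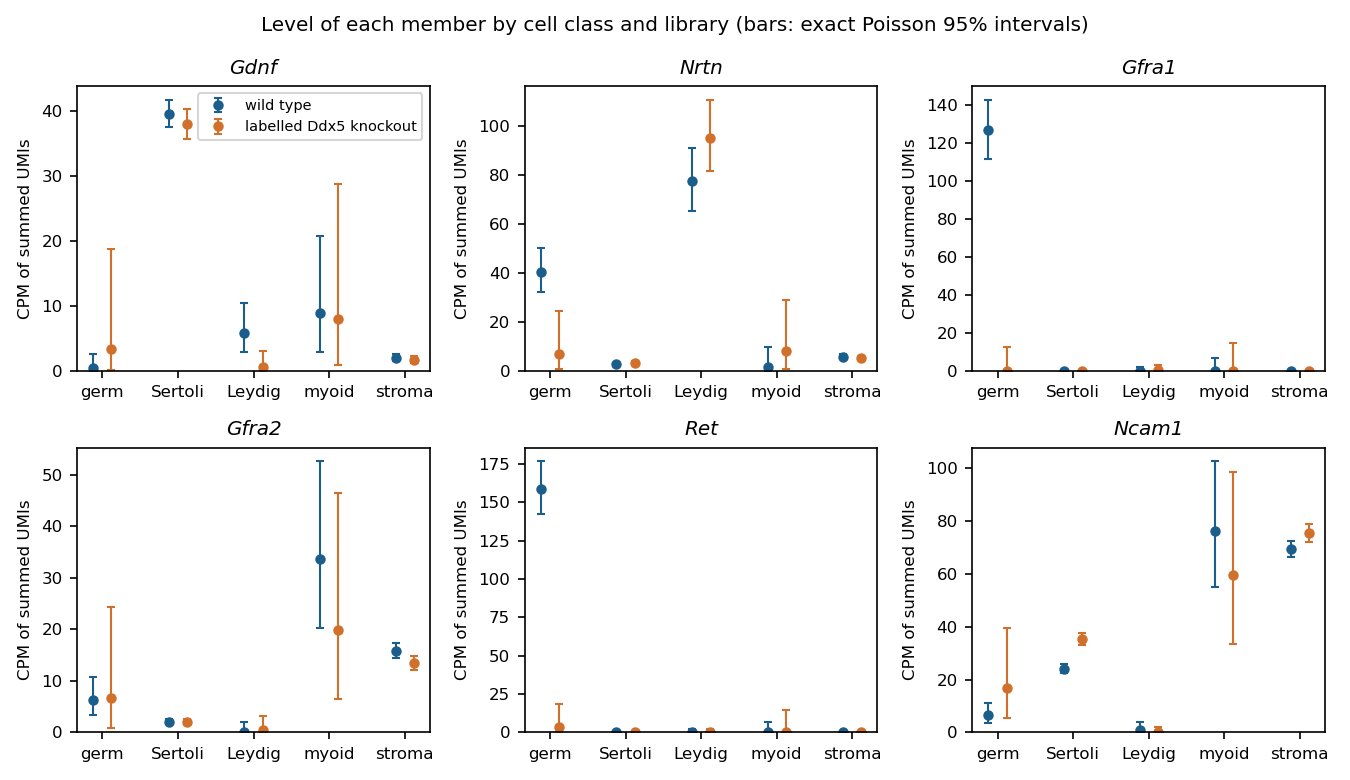
Level of each member, in CPM of the UMIs summed over all cells of a class, for 5 classes of cells that passed exactly 1 gate; blue is wild type, orange the library labelled Ddx5 knockout, and bars are exact Poisson 95% intervals. Gdnf stands out in Sertoli cells (39.6 and 38.0 CPM), Nrtn in Leydig cells (77.4 and 95.2 CPM), and Gfra1 and Ret in wild-type germ cells (126 and 159 CPM).

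*Gdnf*, the ligand of the stem cell niche, gave 1337 UMIs in 2165 wild-type Sertoli cells, or 39.6 CPM (37.5 to 41.8), and 1054 UMIs or 38.0 CPM (35.7 to 40.4) in the library labelled *Ddx5* knockout. A UMI was detected in 38.8% (36.8 to 40.9) and 40.8% of the cells, and no wild-type cell held more than 8. Sertoli cells supplied 85.9% of all *Gdnf* UMIs of wild-type cells and 87.4% in the other library. Myoid cells held 8.88 CPM (2.88 to 20.7) and 7.98 CPM from only 5 and 2 UMIs. Stromal cells were low, at 2.02 CPM (1.54 to 2.61) and 1.67 CPM, with a UMI in 1.82% of the wild-type cells. The Leydig values, 5.83 and 0.56 CPM, rested on 11 UMIs and 1 UMI, and germ cells gave 1 UMI in each library. Sertoli cells stood above the other 4 classes in both libraries, whose order among themselves was set by few UMIs.

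Because Sertoli cells were deeper than stromal cells, with medians of 13458 and 9483 UMIs in wild type, cells were also thinned to 5000 UMIs each. *Gdnf* was then detected in 16.5% of wild-type Sertoli cells and 16.3% of those labelled *Ddx5* knockout, against 0.82% and 0.91% of stromal cells. The cells too shallow for this numbered 18 and 4 among Sertoli cells and 63 and 54 among stromal cells. *Gdnf* reached 0.593 UMIs per 100 UMIs of Sertoli markers in wild-type Sertoli cells, 1.91 in stromal cells and 7.46 in myoid cells, and in the other library 0.653, 1.80 and 9.09. Leydig cells gave 4.62 and 0.394 from 11 UMIs and 1 UMI, and wild-type germ cells 0.391 from 1 UMI. The part of free RNA in the low levels was not tested.

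Classes were tested against each other with edgeR's quasi-likelihood test on UMIs summed per class and library, with the library as a block and p-values adjusted by Benjamini-Hochberg over 16043 genes. The 2 libraries are the replicates of this test and they also differ in genotype. *Gfra1* and *Ret* had too few somatic UMIs to enter, so that 4 of the 6 genes were tested. In the Sertoli contrast against the mean of the other 3 somatic classes, *Gdnf* was higher by 3.37 on the log2 scale (SE 0.18, adjusted p = 4.8e-18), where the median gene moved by 0.16. That contrast called 51.7% of all genes, and 3 of the 4 tested members, *Gdnf* and *Ncam1* as higher and *Nrtn* as lower (-2.05). Between pairs of classes *Gdnf* was higher in Sertoli than in stromal cells by 4.42 (SE 0.15, edgeR adjusted p = 5.6e-24), in a comparison that called 75.9% of genes. It was higher than in Leydig cells by 3.46 (SE 0.31, edgeR adjusted p = 1.1e-11), where 52.8% were called, and than in myoid cells by 2.23 (SE 0.46, edgeR adjusted p = 2.1e-04), where 33.9% were called. No pair of the 3 lower classes passed the threshold for *Gdnf*, with edgeR adjusted p of 0.24 for Leydig against myoid, 0.119 for Leydig against stroma and 0.0713 for myoid against stroma. These pairs called 35.5%, 58.1% and 8.03% of all genes.

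*Nrtn*, which encodes neurturin, was highest in Leydig cells, with 146 UMIs in 124 wild-type cells, or 77.4 CPM (65.3 to 91.0), and 169 UMIs in 101 cells, or 95.2 CPM (81.4 to 111), in the library labelled *Ddx5* knockout. A UMI was seen in 60.5% and 68.3% of these cells. Wild-type germ cells followed with 84 UMIs, 40.4 CPM, present in 34 of 62 cells. Their level was 0.522 times that of Leydig cells (0.394 to 0.687) and 15.3 times that of Sertoli cells. Stromal cells held 5.82 CPM (4.98 to 6.77) and 5.29 CPM, and Sertoli cells 2.64 and 3.32 CPM. Since stromal and Sertoli cells were many, stroma still supplied 24.9% of the wild-type *Nrtn* UMIs, more than the 21.4% from Leydig cells. In the other library the order was reversed, with 31.6% from Leydig cells and 25.5% from stroma. The ratio of *Nrtn* to Leydig markers, per 100 marker UMIs, was 3.54 in wild-type Leydig cells, 16.8 in Sertoli cells and 114 in stromal cells.

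In the Leydig contrast *Nrtn* was higher by 4.57 (SE 0.19, edgeR adjusted p = 6.1e-21), and all 4 tested members passed the threshold, against 48.4% of genes. The other 3 were lower in Leydig cells, *Ncam1* at -6.48, *Gfra2* at -4.95 and *Gdnf* at -1.24, and the last call ended with DESeq2 (-1.35, adjusted p = 0.0514), its value being -0.60 in the wild-type library alone and -3.35 in the other alone. *Nrtn* was also higher in stromal than in Sertoli cells, the Sertoli value falling below by 0.88 on the log2 scale (log2 difference -0.88, SE 0.17, edgeR adjusted p = 3.3e-05). Myoid cells gave 1 UMI and 2 UMIs and did not pass the threshold against stromal cells, at -0.56 (SE 0.84, edgeR adjusted p = 0.80).

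*Gfra1*, the co-receptor for GDNF, gave 263 UMIs over 62 germ cells of wild type, which is 126 CPM (112 to 143), with a UMI in 52 of them (83.9%). The median cell held 4 UMIs and the highest 13. In the gated somatic classes *Gfra1* was close to 0: 7 UMIs in 2165 wild-type Sertoli cells, 6 in 2851 stromal cells and 0 in Leydig and myoid cells. Wild-type cells of no gate held 18 UMIs, and 1 unnamed group of the unsupervised clustering, cluster 16, held 80.4 CPM from 20 UMIs. The germ level was 636 times (366 to 1211) that of the somatic classes together, but 49.2 times (41.5 to 58.7) with each cell in every gate it passed, where 39 cells of the germ gate also count as Sertoli cells. The 2 germ cell markers outside the gate gave 793 UMIs (381 CPM) in germ, 153 (4.53 CPM) in Sertoli and 48 (1.64 CPM) in stromal cells of wild type. Per 100 UMIs of all 6 germ markers *Gfra1* gave 4.11 UMIs in germ, 2.87 in Sertoli and 4.48 in stromal cells, the last 2 from 7 and 6 UMIs. The part of free RNA in the few somatic *Gfra1* UMIs was not tested.

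*Ret*, the signalling kinase, was likewise high in wild-type germ cells, with 330 UMIs or 159 CPM (142 to 177) in wild-type germ cells and a UMI in 53 of 62 (85.5%). The median was 5 UMIs per cell and the highest 16. Sertoli cells held 4 UMIs, stromal cells 3, and Leydig and myoid cells 0, and cluster 16 gave 0 UMIs of *Ret*. The germ level was 1483 times (712 to 3717) that of the somatic classes, and 49.0 times (42.3 to 57.1) with every gate passed. Both transcripts were found together in 48 of the 62 wild-type germ cells and at least 1 of them in 57. *Nrtn* was found with *Ret* in 32 germ cells and with *Gfra1* in 32.

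**Figure D2:**
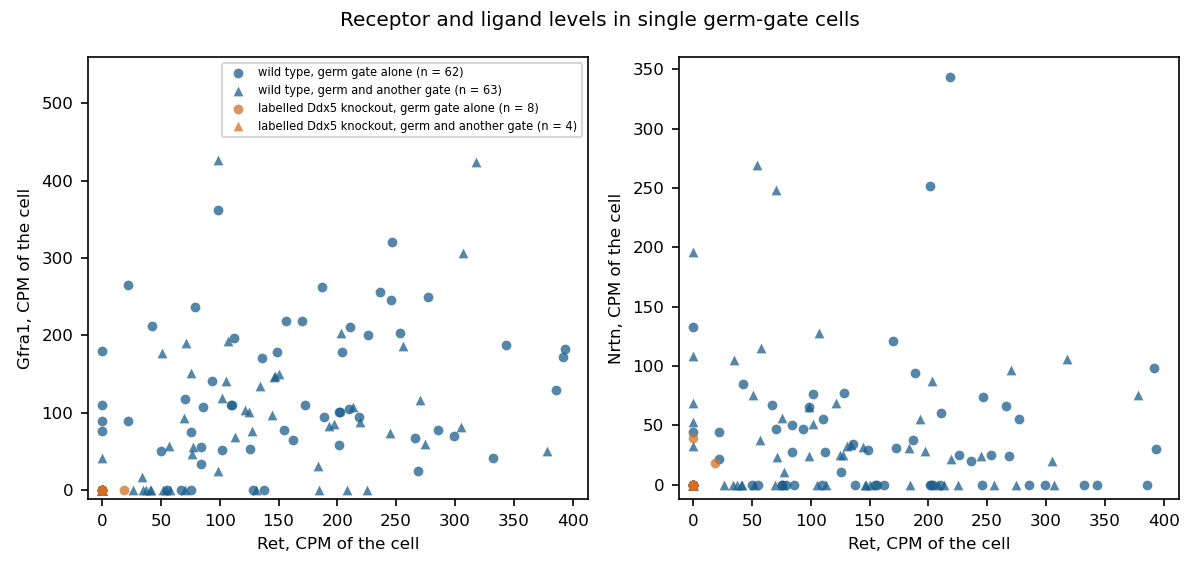
Each point is 1 cell of the germ gate; the x axis is Ret and the y axes are Gfra1 (left) and Nrtn (right), all in CPM of the cell, with circles for cells of the germ gate alone and triangles for cells that passed a further gate. Of the 62 wild-type cells of the germ gate alone 48 held both Gfra1 and Ret, and the 12 cells labelled Ddx5 knockout held 0 UMIs of Gfra1, 1 of Ret and 2 of Nrtn, the last in 2 cells.

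In the library labelled *Ddx5* knockout the germ gate held 8 cells and 295905 UMIs. *Gfra1* gave 0 UMIs in them, at least 12.5-fold lower than in wild type against a floor of 3 UMIs (10.1 CPM), and the exact interval of the ratio reached up to 0.0993. *Ret* gave 1 UMI, 3.38 CPM, a ratio of 0.0213 (0.000538 to 0.120), and *Nrtn* gave 2 UMIs, 6.76 CPM (0.82 to 24.4), a ratio of 0.167 (0.0199 to 0.624). These 3 members reached 20 UMIs through the wild-type cells in which they are high, so that their passing a 2-fold difference, as 54.1% of all 9715 genes so compared did, is a description. Over all those genes the median log2 ratio was -0.71, and 4434 were lower and 818 higher past 2-fold. The other 3 members stayed under 20 UMIs and had ratios of 7.03 (0.0895 to 552) for *Gdnf*, 1.08 (0.118 to 4.78) for *Gfra2* and 2.51 (0.708 to 7.38) for *Ncam1*. Including the cells that passed a further gate, 12 cells labelled *Ddx5* knockout held 0 UMIs of *Gfra1*, 1 of *Ret* and 2 of *Nrtn*, and 125 wild-type cells held 452, 598 and 158. Over these cells the ratios were 0.359 (0.00875 to 2.18) for *Gdnf*, 3.11 (1.01 to 8.18) for *Gfra2* and 2.10 (0.896 to 4.40) for *Ncam1*. The 2 germ markers outside the gate summed to 381 CPM in wild type and 122 CPM in the 8 cells. Of a list of 6 genes known to respond to GDNF in spermatogonia 2 are given here. *Pou3f1* stood at 196 CPM in wild type and 10.1 CPM in the other library, *Id4* at 151 and 16.9 CPM. This list was put together with earlier results of these cells known, the direction of these 2 genes is no independent evidence, and the median gene was lower as well.

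*Gfra2*, the co-receptor for neurturin, was a transcript of myoid and stromal cells. Myoid cells gave 19 UMIs, 33.7 CPM (20.3 to 52.7), in wild type, and 5 UMIs, 19.9 CPM (6.48 to 46.5), among cells labelled *Ddx5* knockout. Over the whole myoid gate the values were 26.8 CPM from 269 UMIs and 28.2 CPM from 201, with a UMI in 27.0% and 27.3% of the cells. Stromal cells held 15.8 CPM (14.4 to 17.3) and 13.4 CPM (12.1 to 14.9), detected in 12.5% and 10.8%. Sertoli cells were at 2.01 and 2.02 CPM, germ cells at 6.25 and 6.76 CPM from 13 and 2 UMIs, and Leydig cells gave 0 and 1 UMI. Stroma supplied 55.5% of the wild-type *Gfra2* UMIs.

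In the myoid contrast *Gfra2* was higher by 3.77 (SE 0.51, edgeR adjusted p = 4.8e-07), and 2 of the 4 tested members passed, *Gfra2* and *Ncam1*, against 21.7% of genes. In the stroma contrast *Gfra2* was higher by 2.46 (SE 0.27, edgeR adjusted p = 2.2e-09), and 3 of the 4 passed, against 43.9% of genes, with *Gdnf* lower at -2.53. These contrasts lean on the Leydig sums, in which *Gfra2* is nearly 0. Set directly against each other, myoid and stromal cells did not pass the threshold, at a log2 difference of 0.98 (SE 0.36, edgeR adjusted p = 0.101), and both stood above Sertoli cells, stroma by 2.82 (edgeR adjusted p = 3.6e-17) and myoid by 3.8 (edgeR adjusted p = 2.2e-08).

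*Ret* was found in 3 of 2851 wild-type stromal cells and 0 of 2474 in the other library, too few to count joint detection with *Gfra2*. For *Ncam1* it could be counted. Of 356 wild-type stromal cells with *Gfra2*, 207 also held *Ncam1* (58.1%), against 32.1% of those without it, and in the other library 157 of 267 did (58.8% against 33.5%). Depth was not matched between these cells, and its part in the difference was not tested.

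*Ncam1*, the adhesion molecule, was abundant in myoid cells, at 76.3 CPM (55.2 to 103) and 59.8 CPM (33.5 to 98.7), and in stromal cells, at 69.6 CPM (66.6 to 72.7) and 75.4 CPM (72.1 to 78.8). Over the whole myoid gate it stood at 85.1 and 63.0 CPM. Sertoli cells held 24.2 CPM (22.6 to 25.9) and 35.5 CPM (33.3 to 37.8), with a UMI in 23.7% and 34.7% of the cells. Germ cells were lower, at 6.73 CPM in wild type, 0.152 times the somatic level (0.083 to 0.256), and Leydig cells gave 2 UMIs and 0. Stroma supplied 51.8% and Sertoli cells 20.8% of the wild-type UMIs.

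Between pairs of classes, *Ncam1* was lower in Sertoli than in stromal cells by a log2 difference of -1.26 (SE 0.10, edgeR adjusted p = 6.8e-14) and than in myoid cells by -1.28 (SE 0.25, edgeR adjusted p = 9.2e-05). The difference between myoid and stromal cells was 0.02 (SE 0.23, edgeR adjusted p = 0.98). Against the mean of the other 3 classes, *Ncam1* appeared higher in Sertoli cells, by 1.03 (SE 0.28, edgeR adjusted p = 0.0022). That mean is taken on the log scale, and the Leydig sums were at 2 and 0 UMIs. It was 0.33 in the wild-type library alone and 1.70 in the other alone, with no test. The direction turned to -0.086 (edgeR adjusted p = 0.756) with cells assigned to every gate they passed. In the stroma and myoid contrasts *Ncam1* was higher by 2.71 and 2.74.

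Unsupervised Leiden clusters, built without the 6 genes, gave a finer view. They are described without a test. *Gdnf* was highest in cluster 7, whose leading genes *Ube2c* and *Plk1* belong to mitosis and whose cells passed the Sertoli gate in 512 of 513 cases, at 70.7 and 69.1 CPM. The Sertoli-like cluster 2, led by *Rhox8*, held 36.7 and 31.7 CPM, and cluster 5, led by *Gdf15* and the DNA synthesis genes *Dut* and *Tk1* and also of the Sertoli gate, 28 and 33.6 CPM. *Mki67* and *Top2a* summed to 1224 CPM in cluster 5 and 1787 CPM in cluster 7, so that cells of the cycle held both low and high *Gdnf* levels. *Gfra2* peaked in the myoid-like cluster 9, at 51.4 and 55.6 CPM, a cluster that held *Ncam1* at 173 and 138 CPM. Cluster 6, led by *Mxd3*, held *Ncam1* at 170 and 195 CPM, and the highest *Ncam1* level, 422 CPM, was that of cluster 16, with 17 cells, all wild type. The stroma-like cluster 1, led by *Dpt*, held 42.7 and 47.3 CPM of *Ncam1*. *Nrtn* was led by the Leydig-like cluster 11 with 68.2 and 80.9 CPM, followed in wild type by the germ-like cluster 13 with 37.8 CPM. That germ-like cluster held 108 CPM of *Gfra1* and 143 CPM of *Ret* in wild type, and 0 and 2.2 CPM in its 12 cells labelled *Ddx5* knockout.

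**Figure D3:**
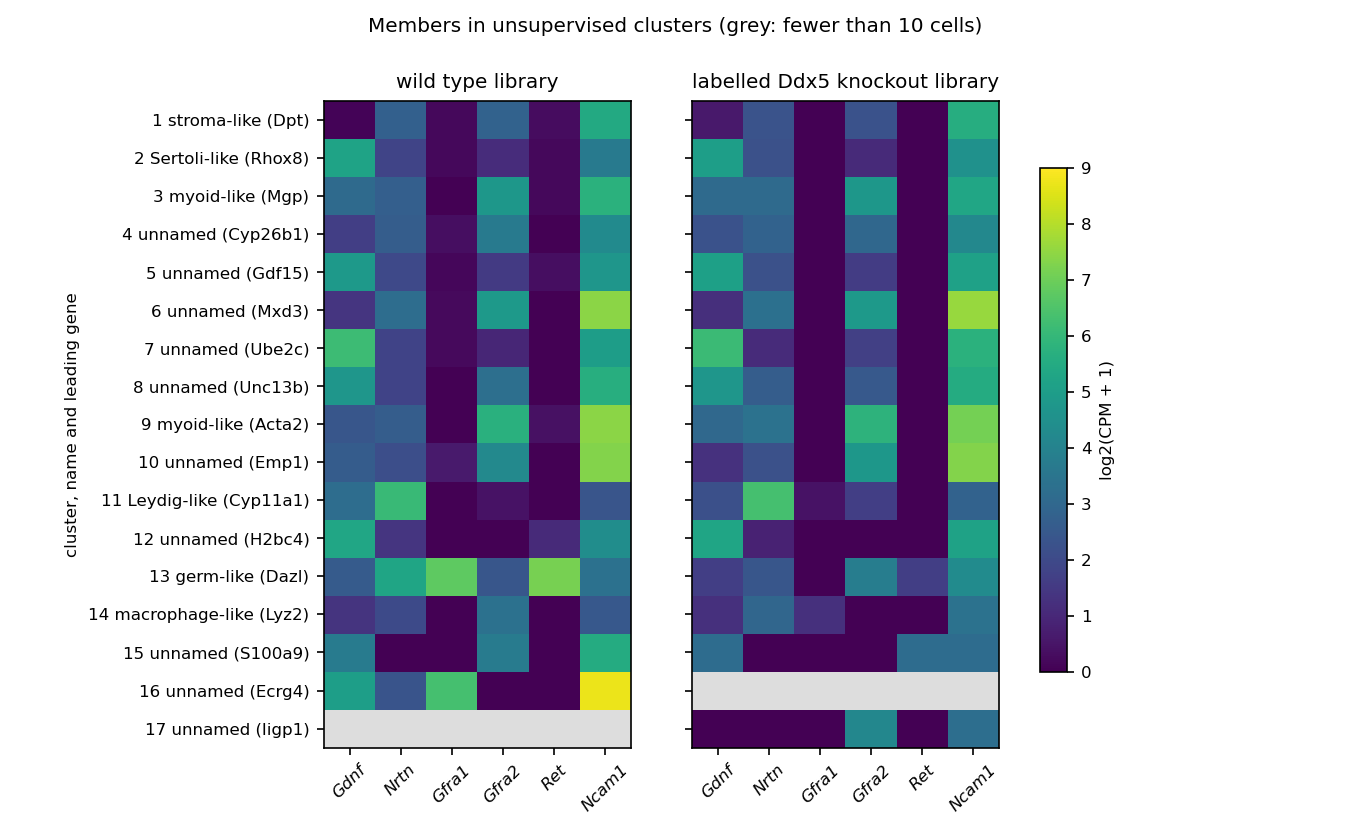
Colour gives log2(CPM + 1) of each member (columns) in the 17 Leiden clusters (rows, with their leading gene) of the wild-type library, left, and the library labelled Ddx5 knockout, right; grey marks fewer than 10 cells. Gfra1 and Ret are bright in the wild-type germ-like cluster 13 only, except that cluster 16 also holds Gfra1 (80.4 CPM) without Ret, and Ncam1 is brightest in clusters 16, 9 and 6 on the left and in clusters 6, 10 and 9 on the right.

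Within classes, members were compared between cells with at least 3 UMIs of *Mki67* and *Top2a*, called cycling, and the others. In Sertoli cells *Gdnf* stood at 45.8 CPM in the 834 cycling wild-type cells and 33.6 CPM in the other 1331, a ratio of 1.36 (1.22 to 1.52), and at 46.3 and 28.4 CPM in the other library, a ratio of 1.63 (1.43 to 1.86). *Ncam1* in Sertoli cells had ratios of 2.25 and 1.89. For *Nrtn* in Sertoli cells the ratio lay above 1 in wild type, at 1.4 (0.902 to 2.19), and below 1 in the other library, at 0.636 (0.409 to 0.980), and stromal *Gdnf* stood at 1.25 (0.675 to 2.22) and 0.833 (0.351 to 1.77). In stroma *Ncam1* was at 159 CPM in cycling cells and 38.2 CPM in the others in wild type, a ratio of 4.16 (3.81 to 4.55), and 4.37 (3.99 to 4.79) in the library labelled *Ddx5* knockout. For stromal *Gfra2* the ratios were 2.95 (2.45 to 3.56) and 4.72 (3.79 to 5.90). Stromal *Nrtn* had ratios of 1.63 (1.17 to 2.25) and 1.83 (1.26 to 2.62), and *Gfra2* in Sertoli cells 1.58 (0.952 to 2.68) and 2.86 (1.51 to 5.79). In wild-type germ cells *Ret* held 175 CPM in 46 cycling cells and 85.8 CPM in 16 others (ratio 2.04, 1.41 to 3.03), and *Gfra1* 133 and 96.5 CPM (ratio 1.38, 0.967 to 2.02). Cycling cells were deeper, with medians of 18150 and 11935 UMIs in wild-type Sertoli cells and 13914 and 9077.5 in stroma. The part of depth in the cycling call was not tested.

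**Figure D4:**
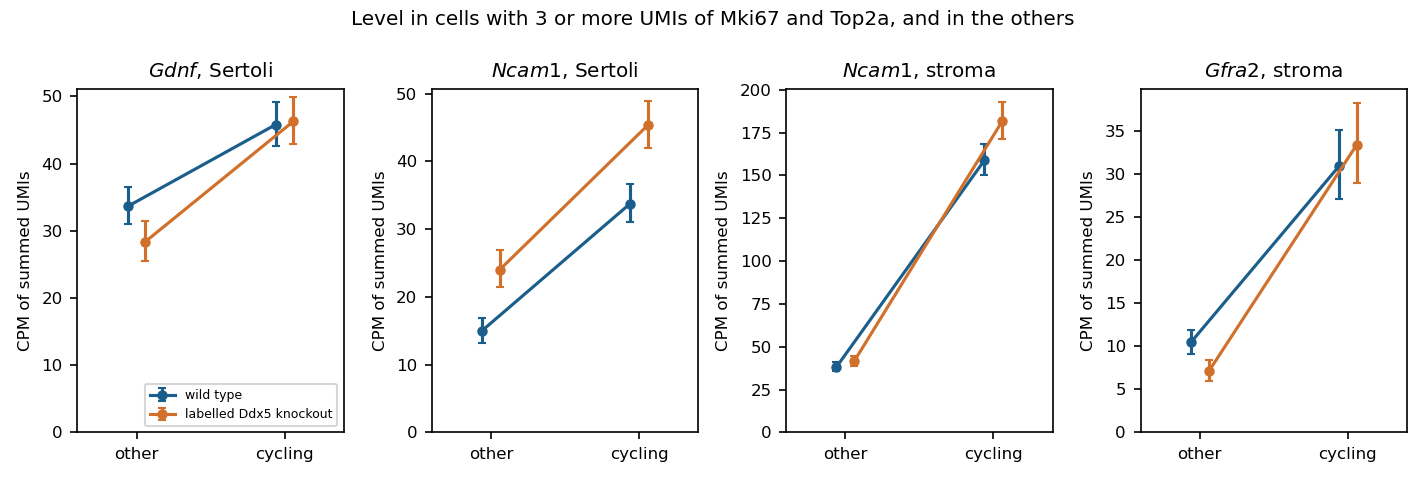
CPM of summed UMIs of Gdnf and Ncam1 in Sertoli cells and of Ncam1 and Gfra2 in stromal cells, for cells with at least 3 UMIs of Mki67 and Top2a (cycling) and the others; blue is wild type, orange the library labelled Ddx5 knockout, bars are exact Poisson 95% intervals. In these 4 pairs of member and class, as in some pairs not drawn, cycling cells lie higher in both libraries. The ratios are 4.16 and 4.37 for Ncam1 and 2.95 and 4.72 for Gfra2 in stroma.

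Between the libraries, no somatic member with at least 20 UMIs over both passed a 2-fold difference in Sertoli (0 of 4, against 2.73% of genes), Leydig (0 of 1, against 3.09%), myoid (0 of 2, against 7.83%) or stromal cells (0 of 4, against 2.23%). Under that minimum *Gdnf* in Leydig cells gave 11 UMIs in wild type but 1 among cells labelled *Ddx5* knockout, a ratio of 0.0966 (0.00224 to 0.665). *Gdnf* in Sertoli cells had a ratio of 0.960 (0.885 to 1.04), labelled knockout over wild type. *Nrtn* had 1.23 (0.980 to 1.55) in Leydig cells, 1.26 (0.930 to 1.70) in Sertoli cells and 0.909 (0.720 to 1.15) in stroma. *Gfra2* stood at 0.851 (0.738 to 0.980) in stroma and 1.0 (0.691 to 1.45) in Sertoli cells, and at 0.591 (0.173 to 1.64) from 24 UMIs in myoid cells.

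Among the somatic ratios of members that reached 20 UMIs in all, the interval of *Ncam1* in Sertoli cells lay farthest from 1, at 1.47 (1.34 to 1.61), with 24.2 CPM in wild type and 35.5 CPM in the other library. The stromal markers outside the gates stood in these Sertoli cells at 506 CPM in wild type against 767 CPM in the other library. Per 100 UMIs of these markers *Ncam1* gave 4.78 and 4.62 UMIs in Sertoli cells, and 0.885 and 0.969 in stromal cells. The part of stromal RNA in the ratio was not tested. The share of cycling cells among Sertoli cells was 38.5% in wild type against 44.2% in the other library. Within cycling cells the ratio was 1.34 (1.20 to 1.51) and within the others 1.60 (1.35 to 1.90), and without the doublets it was 1.62. In stroma *Ncam1* had a ratio of 1.08 (1.02 to 1.15) and over the whole myoid gate 0.741 (0.659 to 0.831). With 1 library per genotype these values compare 2 libraries, and genotype and library cannot be told apart.

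**Figure D5:**
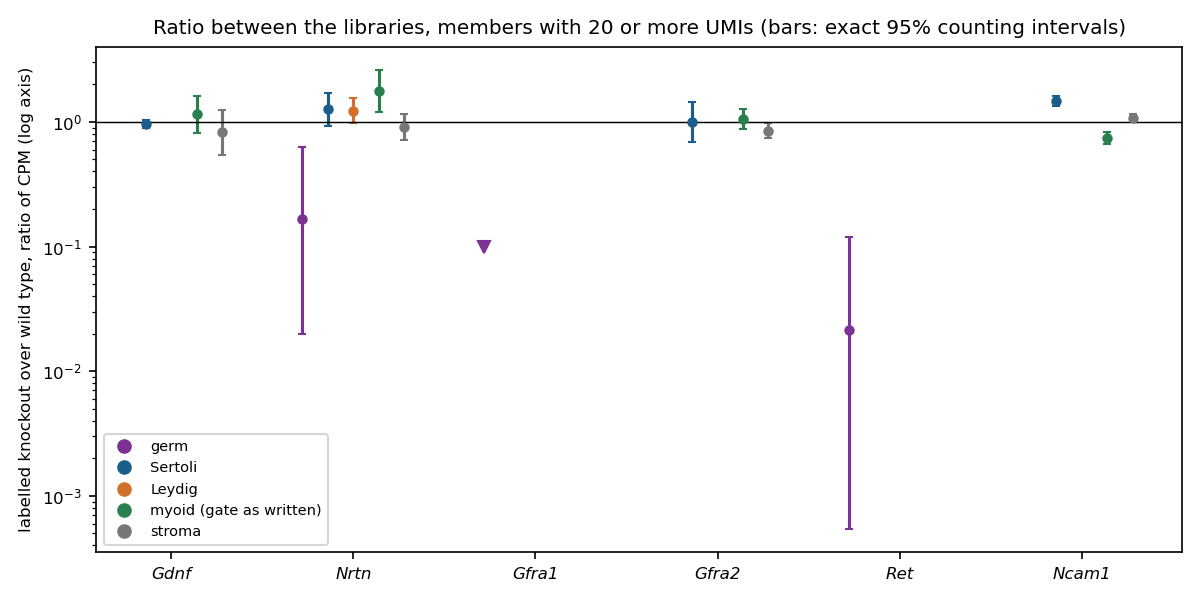
Ratio of CPM, labelled Ddx5 knockout over wild type, on a log axis, for members with at least 20 UMIs over both libraries, coloured by class, with myoid cells drawn over their whole gate in place of the cells of exactly 1 gate, with exact 95% counting intervals; the triangle is the upper bound for Gfra1, which had 0 UMIs. The somatic ratios drawn lie between 0.741 and 1.77, whereas the germ ratios of Nrtn, Gfra1 and Ret lie at or below 0.167.

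The rest of the pathway was read from lists fixed with earlier results known. Their counts stand against 5075 higher and 3222 lower of 16043 genes in the Sertoli contrast (51.7% called), 4342 and 3422 in Leydig (48.4%), 1784 and 1692 in myoid (21.7%) and 4295 and 2752 in stroma (43.9%). Of 7 other family ligands and receptors 6 were in the table and 3 were tested. *Gdf15*, a distant family ligand, was at 65.4 and 61.4 CPM in Sertoli cells and the only 1 of the 3 called higher there. *Sdc3*, a proteoglycan that binds GDNF, was at 72.8 and 75.8 CPM in myoid and 36.8 and 38.3 CPM in stromal cells, and 2 of 3 were called higher in each of these classes. *Gfra4* reached 22.1 CPM in wild-type germ cells. Both polysialyltransferases that modify NCAM, *St8sia2* and *St8sia4*, were called higher in stroma, where *St8sia2* held 75.8 and 75.5 CPM, against 4.65 and 6.45 CPM in Sertoli cells. Of 10 adaptors and kinases that act below RET, 4 were higher and 3 lower in Sertoli cells, and likewise 4 and 3 in stroma, while none was higher and 3 were lower in Leydig cells and 1 was higher in myoid cells. *Fyn*, a kinase of the Src family, was found in every somatic class, at 128 and 128 CPM in Sertoli cells and 153 and 168 CPM in stroma. Its level in germ cells was 143 CPM in wild type and 0 in the 8 cells labelled *Ddx5* knockout, with the same floor of 10.1 CPM.

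Of 8 other niche factors tested, 6 were higher in stroma and none lower, where 43.9% of genes were called in either direction, with *Cxcl12*, a chemokine, at 1128 and 1113 CPM and *Igf1*, a growth factor, at 968 and 952 CPM. In Sertoli cells 2 were higher and 4 lower, with *Pdgfa* at 392 and 348 CPM and *Kitl*, the KIT ligand, at 250 and 230 CPM. In Leydig cells 3 were higher and 5 lower, with *Wnt5a* at 242 and 204 CPM, and in myoid cells 3 and 3. Of 6 genes held to regulate *Gdnf*, 3 were higher and 3 lower in Sertoli cells, where 51.7% of genes were called, 2 and 2 in Leydig and in myoid cells, and 2 and 1 in stroma. Within Sertoli cells the list was led by *Wt1*, at 261 and 266 CPM, and *Nr5a1*, at 86.9 and 99.6 CPM, which was at 348 and 464 CPM in Leydig cells. The GDNF-responsive list had 3 of 6 genes tested in somatic cells, of which 1 was higher in Sertoli and 1 in myoid cells, 1 lower in stroma and all 3 lower in Leydig cells, and *Mycn* held 123 and 104 CPM in Sertoli cells.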

How the data were processed

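Dissociated P2 testes of 16 labelled samples, 8 per genotype, were captured with the Chromium 3′ v3 kit. The authors deposited raw UMI counts per gene and barcode, made with Cell Ranger 3.1.0 on GRCm38 with GFP and CRE added, not normalized and before their cell filter; Seurat 3.1.5 is also named in the submitters' notes. The barcode suffix was tied to the genotype by the number of cells that pass the study's filter, which came within 1 cell of the numbers the study gives. Genes were always the 6 members and *Ddx5*; of each list the 2 highest in a class were named, and beyond these single genes chosen after their values were seen. Members and lists were chosen with earlier results of these data known.

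UMIs were summed per class and library. Levels are CPM. Class contrasts used edgeR 4.0.16 (TMM, filterByExpr, glmQLFTest) in R 4.3.3 on 8 sums, called at an adjusted p of 0.05. On simulated counts of 16043 genes for the Sertoli contrast 97.5% of 200 changed genes were recovered, and 3.47% of the calls were false. The changed genes were drawn from genes with many UMIs, and all others had equal expected levels in every class. The recovery therefore does not cover genes of few UMIs, or contrasts that call a large share of genes. Genotype ratios had no test, and their background was every gene that reached 20 UMIs in the libraries together. Clusters and doublets (Scrublet, called per library, 4.65% and 6.06% of cells, kept) came from scanpy 1.11.5 with leidenalg 0.10.2. Python 3.11.15, SciPy 1.17.1 and pandas 2.3.3 were used. A count of 0 was set against a floor of 3 UMIs per group.

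Alternatives were DESeq2 1.42.0, its size factors in edgeR, no filter on low counts, cells in every gate they pass, stricter gates, no doublets, thinning to 5000 UMIs, 1 library alone, other scalings, filters and folds and named clusters. Gates applied in order and pairs of classes were added after the data were seen. Replicate numbers of the labels could not be tied to barcodes, and p-values measure only the spread between the 2 libraries.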

Additional observations from a re-analysis of the deposited data

Results flagged for a closer look

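*Ncam1* and *Nrtn* had ratios between the libraries on opposite sides of 1 in different classes, with intervals that leave out 1, when each cell was counted in every gate it passed. *Ncam1* was at a ratio of 1.48 in Sertoli cells and 0.741 in myoid cells. For *Nrtn* the ratio was 1.77 in myoid cells and 0.118 in germ cells. With 1 library per genotype, the difference between the classes was not tested.

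Cells that passed no gate, 204 in wild type, held *Gfra1* at 9.77 CPM (5.79 to 15.5) from 18 UMIs and *Ncam1* at 88.5 CPM from 163 UMIs. Among Sertoli, Leydig, myoid and stromal cells of wild type the highest values were 0.21 CPM of *Gfra1* (Sertoli) and 76.3 CPM of *Ncam1* (myoid). No test was run on this. The *Gfra1* UMIs came from 9 cells, all of cluster 16, and 71 of the *Ncam1* UMIs from 12 cells of that cluster.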

How the results depend on the processing

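No paired analysis was possible because the barcodes carry no replicate number. Of the members' class contrasts under the alternatives with both libraries 114 kept their direction and side of the threshold, 8 gained a call, 4 lost it and 2 reversed. *Ncam1* in the Sertoli contrast became -0.086 with every gate a cell passes and -0.10 with gates in order, and lost its call when thinned (0.68). *Gdnf* in the Leydig contrast lost its call with DESeq2 (-1.35), when thinned (-1.31) and with gates in order (-0.63). With 1 library alone, 18 of these values, which have no test, moved and 14 did not, none changed sign, and they ranged from 3.00 to 3.97 for *Gdnf* and 0.33 to 1.70 for *Ncam1* in Sertoli cells. With every gate passed *Gfra1* and *Ret* entered the fit and were called higher in Sertoli cells (4.41 and 4.82), and 39 wild-type cells of the germ gate also passed the Sertoli gate. Genes called fell when thinned to 5094 (Leydig, from 7764) and 2158 (myoid, from 3476), and rose in myoid to 9027 with every gate passed and 9073 in order. Higher calls were 61.2% of those in the Sertoli contrast and 51.3% in the myoid contrast. With DESeq2 they were 3941 of 7859 calls in the Sertoli contrast and 2118 of 3143 in the myoid contrast. The median over all genes in the Sertoli contrast was -0.01 with DESeq2.

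Members past 2-fold between libraries numbered 6 of 6 in germ cells with every gate passed and in order, against 52.3% of genes. *Gfra1*, *Ret*, *Nrtn* and *Gdnf* were lower there in the library labelled *Ddx5* knockout, and *Gfra2* and *Ncam1* higher. The *Gdnf* ratio turned from 7.03 with cells of exactly 1 gate to 0.359, from few UMIs. With every gate passed they were 2 of 6 in Sertoli (5.79% of genes), 2 of 6 in stromal (3.52%) and 1 of 3 in Leydig cells (3.02%; also 1 in order, 2.93%). The members past the fold in Sertoli and stromal cells were *Gfra1* and *Ret*. Wild-type Sertoli cells then held 137 and 189 UMIs of them and stromal cells 52 and 59, against 0 among cells labelled *Ddx5* knockout. Germ gate cells that also passed the Sertoli gate numbered 39 in wild type against 0, and for the stroma gate 18 against 4. Their part in these differences was not tested. With cells of exactly 1 gate, 1 of 2 passed in myoid cells at 1.5-fold (24.1%). Of the values of germ over somatic cells 6 moved and 23 did not. The *Ncam1* ratio in stroma became 0.992 with every gate passed. In wild type *Ncam1* was highest in stroma, not myoid cells, when thinned, and the other 5 members kept their highest class under the alternatives for levels. In the other library *Ncam1* was highest in stroma (75.4 CPM, myoid 59.8 CPM). Depth limits the germ and myoid classes labelled *Ddx5* knockout, with 295905 and 250710 UMIs.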

Other observations

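Cluster 16, led by *Ecrg4*, *Rmst* and *Pax8*, held 17 cells, all of the wild-type library, and 12 of them passed no gate. The fixed list with *Pax8* and *Ecrg4* holds only these 2 markers, so the cluster has no name. *Gfra1* was detected in 58.8% of these cells, at 80.4 CPM (49.1 to 124) from 20 UMIs, and *Ncam1* in 94.1%, at 422 CPM (345 to 511) from 105 UMIs. *Gdnf* reached 32.2 CPM from 8 UMIs. *Ret* and *Gfra2* gave 0 UMIs. The clusters were found in the same cells in which these values were read, and no test was run.

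The genes whose level followed a member most closely, by Pearson's r of log2(CPM + 1) over 14 sums of class and library and among 15033 genes, are given as a description with no p. For *Gdnf* these were *E130114P18Rik* (0.911), *Greb1* (0.896) and *Sel1l3* (0.894). For *Nrtn* they were *Fdps* (0.945), *Chrna4* (0.925) and *Plekha4* (0.918), and for *Gfra2* *Serinc2* (0.965), *Cnih2* (0.957) and *Hs2st1* (0.949). *Ncam1* was followed by *Clip3* (0.944), *Shcbp1* (0.941) and *Akap12* (0.934). *Gfra1* was followed by *Sohlh2* (0.993), *Ppp2r2c* (0.984) and *Smim22* (0.980), and *Ret* by *Tmem59l* (1.0), *Tcl1* and *Stra8* (both 0.999), and for both members the sum of wild-type germ cells stands far above the other 13. The 14 sums include those of macrophages and endothelial cells. Sums of 1 library share its depth and free RNA.

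In Sertoli cells that were not called cycling, *Gdnf* had a ratio between the libraries of 0.844 (0.739 to 0.964) and *Nrtn* of 1.87 (1.21 to 2.92), and in stromal cells not called cycling *Gfra2* had 0.676 (0.543 to 0.840). Among cycling cells *Gdnf* in Sertoli cells stood at 1.01, *Nrtn* at 0.849 (0.545 to 1.31) and *Gfra2* in stroma at 1.08.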
